A study of Schizosaccharomyces pombe with 36 samples.

Results

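In labelled RNA of the fission yeast Schizosaccharomyces pombe taken at time point 50, the transcript of slr1 itself was the only one of 5597 tested that passed the test of a difference between cells lacking slr1 and wild-type (WT) cells. The comparison used the 6 libraries of this time point out of the 36 of the study, 3 from slr1 knockout cultures (strain yMAB001) and 3 from WT cultures (strain yAS99), chosen by their labels. Every culture started from a single colony and received 4-thiouracil. Cells were removed at several time points, and RNA that had taken up the thiol was pulled down through biotin before a stranded mRNA library was made. The same 6 cultures also gave unselected steady-state RNA and labelled RNA at time points 5, 20, 105 and 125, in a unit the labels do not state. The labels name no other allele, and do not say which part of slr1 was removed.

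Slr1p is a member of the LARP1 group of La-related RNA-binding proteins. In animals LARP1 binds the cap and the adjoining pyrimidine tract of 5'TOP mRNAs, the class that codes mainly for ribosomal proteins and for translation factors, and affects their stability and translation. The title of the study asks about mRNAs of that kind in fission yeast. 4-thiouracil is taken up by yeast cells and built into RNA made after its addition, so the pulled-down fraction is weighted towards newer transcripts, and its level for a gene depends on synthesis as well as decay. The marker lists used here describe physiology, not cell types, since the cultures hold yeast cells alone.

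The 6 libraries held 2865805, 4843855 and 1260929 counts on S. pombe genes in knockout cultures 1, 2 and 3, and 5703085, 5240783 and 1823499 in WT cultures 1, 2 and 3. Each file also counted human and fly RNA, added for a purpose that the labels do not state. At steady state the fly counts per 1000 human counts split the cultures into 2 sets, each holding both genotypes: 990 to 1073 in knockout culture 2 and WT cultures 1 and 2, called set A, and 1849 to 2154 in knockout cultures 1 and 3 and WT culture 3, called set B. At labelled 50 the human counts per 1000 S. pombe counts were 69.4, 183 and 73.7 in the knockout and 136, 150 and 81.6 in WT. The difference of mean log2 ratios, knockout minus WT, was −0.28 (exact two-sided permutation p = 0.8, where 3 against 3 cannot go below 0.1). Fly counts per 1000 human counts were 3.75, 13.1 and 1.96 in the knockout and 7.61, 13.9 and 5.13 in WT, a log2 difference of −0.83 (exact permutation p = 0.4). In both ratios the knockout and WT values overlapped, and knockout culture 2 lay nearest to the WT libraries of set A. WT culture 1 also stood apart in several gene lists, and list medians are given with their values when single cultures are left out. Knockout culture 2 is the only knockout culture of set A, and WT culture 3 the only WT culture of set B. Without either of them a genotype comes from 1 set alone. Such fits cannot tell the weight of that library from a difference between the sets.

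The slr1 transcript (SPAC1527.03) fell to 13.1, 11.97 and 9.35 CPM in knockout cultures 1, 2 and 3, against 229, 126 and 108 CPM in WT cultures 1, 2 and 3. CPM is the count of a gene as a share of its library's total after TMM scaling by edgeR. These values rest on 37, 56 and 12 reads in the knockout and 1530, 574 and 199 reads in WT. The groups did not overlap, and WT culture 1 was highest. The mean was 11.5 ± 1.94 CPM in the knockout and 154 ± 65.3 CPM in WT (SD, n = 3 each), or 7.44% of the WT mean. The log2 fold change, knockout over WT, was −3.72 (SE 0.33, edgeR adjusted p = 0.00649). Set A alone gave −3.87 and set B alone −3.18, and leaving out 1 library kept it between −3.91 and −3.31. The adjusted p passed 0.05 in 3 of those 6 fits, with edgeR adjusted p = 0.0772 without knockout culture 1, 0.0627 without knockout culture 3 and 0.0606 without WT culture 2.

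**Figure D1:**
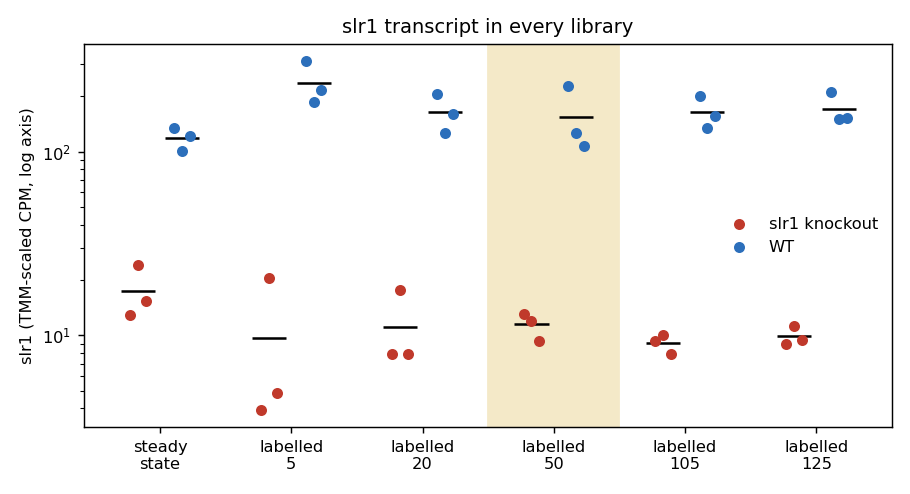
Level of the slr1 transcript in every library (TMM-scaled CPM, log axis) at steady state and at 5 labelled time points. Each point is 1 library, the bar is the mean of 3, the knockout stands left of WT, and the shaded column is labelled 50, where the knockout libraries lie between 9.35 and 13.1 CPM and the WT libraries between 108 and 229 CPM.

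The slr1 log2 fold change was negative in every fraction. Fitted on its own 6 libraries, the slr1 log2 fold change was −2.74 at steady state (SE 0.29), −4.46 at labelled 5 (SE 0.56), −3.82 at labelled 20 (SE 0.37), −4.15 at labelled 105 (SE 0.32) and −4.09 at labelled 125. It passed in each of these except labelled 5 (edgeR adjusted p = 0.270), where knockout culture 2 had 20.4 CPM and the other two 3.92 and 4.82. The knockout effect at labelled 50 minus that at steady state was −0.96 for slr1 (SE 0.35), which did not pass (edgeR adjusted p = 0.849). It differed from the effect at labelled 5 by 0.65 (SE 0.40, edgeR adjusted p = 0.999) and from that at labelled 125 by 0.40 (SE 0.27, edgeR adjusted p = 0.999). Of 7 listed La and La-related genes 4 were tested, and slr1 was the 1 that passed. Among the others sla1, the La protein gene that binds the 3' ends of polymerase III transcripts, had 362, 302 and 312 CPM in the knockout and 497, 314 and 372 CPM in WT, with a log2 fold change of −0.28 (SE 0.25, edgeR adjusted p = 0.9998).

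No gene passed the test as higher in the knockout and slr1 was the 1 gene that passed as lower, 0.0179% of those tested. At an unadjusted p under 0.05, edgeR gave 28 genes higher (0.5%) and 37 lower (0.661%), which is 1.16% in all. Evenly spread p-values would put a share of 0.05 of the genes there, so fewer fell under it than that. The lack of calls therefore does not show that the other genes were unchanged. DESeq2 also gave 0 higher and 1 lower, with 52 genes at an unadjusted p under 0.05. All 3 knockout libraries lay above all 3 WT libraries in 134 genes (2.39%) and below them in 148 (2.64%), or 5.04% together. After slr1, the smallest edgeR adjusted p was 0.9998. The 95% interval of the fold change lay inside 2-fold in either direction for 4112 genes (73.47%), and for 4065 of the 4959 genes with a mean of at least 10 CPM (81.97%). For the remaining genes the interval reached beyond 2-fold in at least 1 direction. The median SE of a log2 fold change was 0.26.

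**Figure D2:**
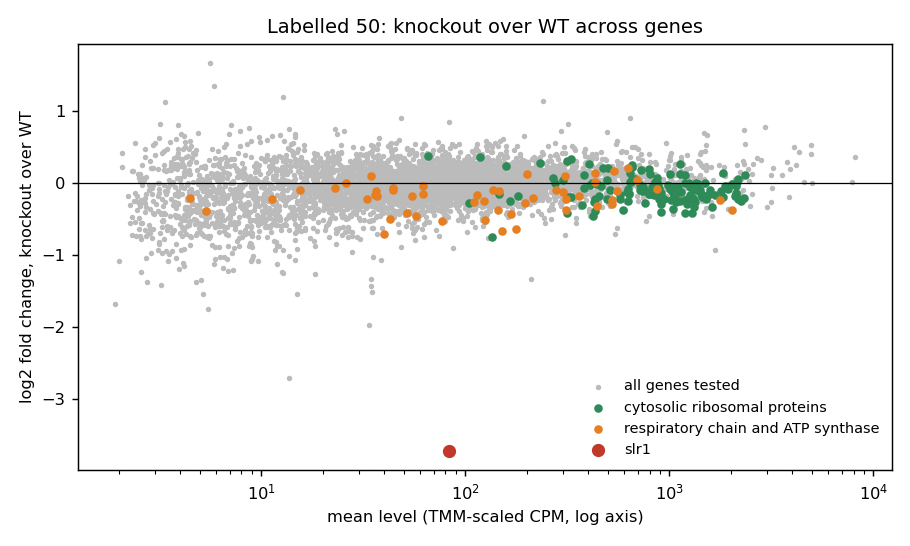
Log2 fold change, knockout over WT, against mean level (TMM-scaled CPM, log axis) for the 5597 genes tested at labelled 50. Grey points are all genes, green points the cytosolic ribosomal protein genes, orange points those of the respiratory chain and ATP synthase, and the red point is slr1 at −3.72, the 1 gene that passed the test.

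A log2 fold change of at least 1 in either direction was found in 48 genes, 18 of them with a mean of at least 10 CPM. Of these 18, 16 had lower and 2 had higher levels in the knockout, and apart from slr1 none passed. The gene with the higher mean of the 2 was ght5, which encodes a high-affinity hexose transporter. It had 286, 232 and 471 CPM in the knockout and 48.2, 254 and 146 CPM in WT, with a log2 fold change of 1.14 (SE 0.52). WT culture 1 was lowest and WT culture 2 lay above knockout culture 2, so the groups overlapped. The log2 fold change was at 0.71 without WT culture 1 and at 1.78 without WT culture 2. In the other fractions of the same cultures it was 0.16 at steady state, and 1.67, 2.07, 0.40 and 0.54 at labelled 5, 20, 105 and 125. On the lower side, nrg1 had 6.03, 5.56 and 12.5 CPM in the knockout and 13.6, 37.7 and 14.6 CPM in WT. Its log2 fold change was −1.55 (SE 0.51), and −0.87 without WT culture 2, the library with the highest value. It was negative in the other fractions too, between −2.74 at labelled 20 and −1.43 at steady state, where the values come from the same cultures.

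Besides slr1, the genes with the smallest p were taken in each direction among those that carried a symbol, averaged at least 10 CPM and showed no overlap between the groups. None of these 10 higher and 9 lower genes passed the test, and each had an edgeR adjusted p of 0.9998, so what follows are values. Since non-overlap was part of how they were chosen, neither their separation nor the sign of their values within subsets of the libraries is support.

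Msa1, an RNA-binding protein that represses sexual differentiation, had 68.5, 50.7 and 69.3 CPM in the knockout and 26.6, 33.1 and 42.2 CPM in WT. Its log2 fold change of 0.90 (SE 0.24) stood beside 0.85 at steady state (SE 0.30) and between 0.57 and 0.88 at the other labelled time points. It was thus positive in every fraction, all of which come from the same cultures. The gene erg1, for squalene epoxidase of sterol synthesis, had 311, 379 and 409 CPM in the knockout and 157, 250 and 264 CPM in WT. Its log2 fold change was 0.71 (SE 0.26), and 0.52 without WT culture 1, which was the lowest library. The gene pho842, for a predicted phosphate transporter, had 279, 568 and 379 CPM in the knockout and 253, 175 and 268 CPM in WT, a log2 fold change of 0.82 (SE 0.31). Knockout culture 2 was highest: the log2 fold change was 0.50 without it, 1.43 in set A, which holds that culture, and 0.28 in set B.

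The gene mrs3, whose homologue in Saccharomyces cerevisiae is a mitochondrial iron carrier, had 72.1, 71.4 and 56.9 CPM in the knockout and 48.5, 45.4 and 44.3 CPM in WT, a log2 fold change of 0.54 (SE 0.19). At the other time points and at steady state its log2 fold change lay between −0.14 and 0.10. The test of the difference from labelled 125 gave 0.68 (SE 0.21, edgeR adjusted p = 0.999). The permease gene per1, which serves amino acid uptake, had 80.6, 81.6 and 77.9 CPM in the knockout and 59.1, 59.5 and 56.7 CPM in WT. The libraries lay close together within each genotype, with a log2 fold change of 0.45 (SE 0.16). The remaining genes of this direction had log2 fold changes between 0.43 and 0.56: msi2, rsd1, ppk9 (a protein kinase), cwf10 (a GTPase of the U5 small nuclear ribonucleoprotein, part of the spliceosome) and ubp11 (a ubiquitin protease). Of these, rsd1 moved most when a culture was left out, to 0.35 without knockout culture 2.

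**Figure D3:**
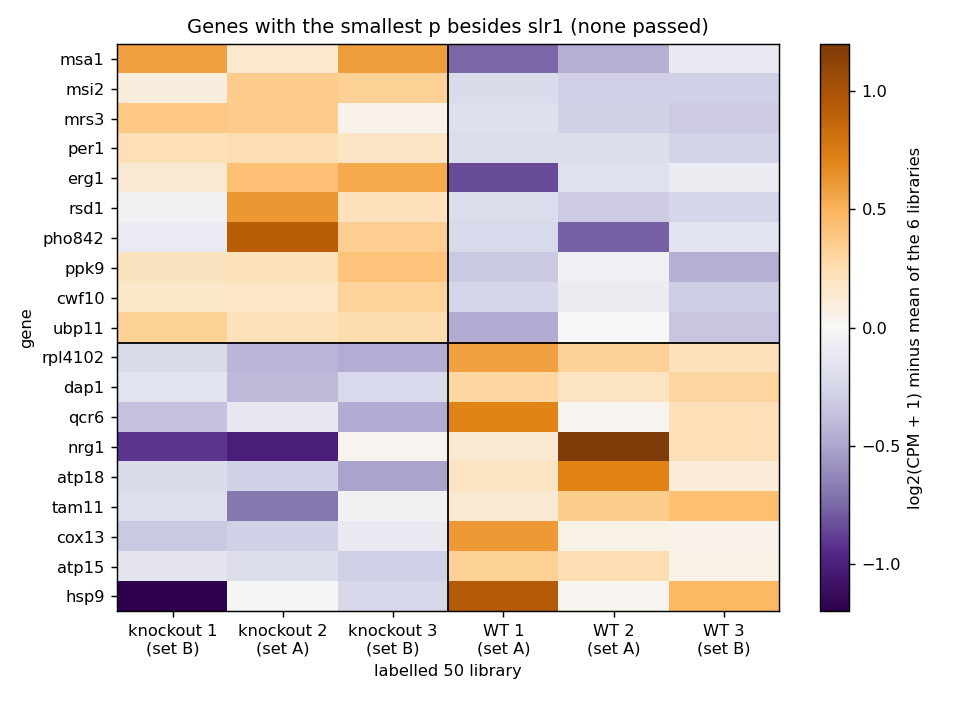
Level of the 19 genes with the smallest p besides slr1 in each labelled 50 library, as log2(CPM + 1) minus the mean of the 6 libraries, from purple (low) to orange (high). Knockout columns stand left of WT columns, and rows above the line are the 10 genes with higher knockout values, rows below it the 9 with lower ones. None passed the test.

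Among the 9 lower genes, rpl4102 had the smallest p after slr1. It is a copy of the gene for eL41, a very short protein of the large ribosomal subunit, and had 111, 97.0 and 94.2 CPM in the knockout and 196, 163 and 152 CPM in WT. The log2 fold change was −0.76 (SE 0.18). The other copy, rpl4101, had 1018, 568 and 886 CPM in the knockout and 712, 1055 and 1128 CPM in WT, which overlap. Reads without a unique place were counted apart from the genes. Reads shared by near-identical gene copies are thus missing from both, so the values of single copies are uncertain. The gene dap1, for a heme-binding regulator of sterol cytochrome P450 enzymes, had 69.9, 59.2 and 66.2 CPM in the knockout and 95.9, 89.7 and 96.7 CPM in WT, a log2 fold change of −0.53 (SE 0.17). The gene hsp9, for a small heat shock protein, had 672, 1513 and 1284 CPM in the knockout and 2932, 1562 and 2115 CPM in WT, a log2 fold change of −0.93 (SE 0.39). WT culture 1 was highest and knockout culture 1 lowest, while knockout culture 2 and WT culture 2 were close. The gene tam11 had a log2 fold change of −0.63 (SE 0.25).

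The last 4 of the 9 encode small subunits of the respiratory chain and the ATP synthase. The cytochrome bc1 gene qcr6 had 113, 133 and 104 CPM in the knockout and 238, 149 and 171 CPM in WT, a log2 fold change of −0.67 (SE 0.22). For the ATP synthase subunit gene atp18 the values were 32.7, 31.2 and 26.5 CPM in the knockout and 43.7, 63.5 and 41.1 CPM in WT, with −0.71 (SE 0.24). In every WT library these genes were above every knockout library, but the gap for qcr6 between knockout culture 2 and WT culture 2 was narrow. The cytochrome c oxidase gene cox13 had a log2 fold change of −0.51 (SE 0.21) and the ATP synthase gene atp15 one of −0.43 (SE 0.17). Without WT culture 1 the value was −0.44 for qcr6 and −0.29 for cox13. At labelled 5 the values of these 4 genes were between −0.05 and 0.26, but at labelled 20 they were between −0.44 and −0.28. They ran from −0.32 to 0.07 at steady state, −0.30 to 0.21 at labelled 105 and −0.64 to −0.03 at labelled 125. The difference between labelled 50 and labelled 5 was −0.63 for qcr6 (SE 0.15) and −0.96 for atp18 (SE 0.23), and neither passed (edgeR adjusted p = 0.999 each).

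The whole list of respiratory chain and ATP synthase genes, 52 of 53 tested, had no member that passed. In 44 of them the log2 fold change was below 0 and in 8 above, with a median of −0.19, against 2995 below, 2602 above and a median of −0.02 over all 5597 genes. At an unadjusted p under 0.05, 6 members were lower and 0 higher, beside 0.661% of all genes lower. In 7 members all knockout libraries lay below all WT libraries, beside 2.64% of all genes. The median was −0.03 without WT culture 2 and −0.35 without knockout culture 2, so it depended on which cultures were included. Without knockout culture 2 the knockout libraries left are all of set B. Set A alone gave −0.11 and set B alone −0.05, and the fit with the set as a term gave −0.09. In the other fractions of the same cultures the median was negative too. It was −0.14 at steady state, and −0.05, −0.27, −0.20 and −0.15 at labelled 5, 20, 105 and 125. Over the list, the median level per library, as log2 CPM minus each gene's mean, was −0.15, 0.14 and −0.33 in knockout cultures 1, 2 and 3 and 0.10, 0.30 and −0.14 in WT cultures 1, 2 and 3. Levels of the genotypes therefore overlapped, and knockout culture 3 was lowest.

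Cytosolic ribosomal protein genes, the main class of 5'TOP mRNAs in animals, gave no call among 136 tested. Their log2 fold changes ran from −0.76 (rpl4102) to 0.37 (rps1401), with 102 below and 34 above 0 and a median of −0.11. For 97 of the 136 the 95% interval lay inside 2-fold. All knockout libraries lay below all WT libraries in 7 members and above them in 0, beside 2.64% and 2.39% of all genes. The median level of the list was 0.03, 0.18 and −0.40 in knockout cultures 1, 2 and 3, and −0.16, 0.44 and −0.16 in WT cultures 1, 2 and 3. The spread among cultures of 1 genotype was thus larger than the difference between genotypes. The median log2 fold change turned to 0.19 without WT culture 2, was 0.02 without knockout culture 3, and was −0.26 without knockout culture 2. Within each culture set it was 0.02, and with the set as a term it was 0.002. In the other fractions it was −0.05 at steady state, −0.06 at labelled 5, −0.43 at labelled 20, 0.07 at labelled 105 and −0.001 at labelled 125. Large-subunit genes (81) had a median of −0.14 and small-subunit genes (55) one of −0.08, and each was at 0.19 without WT culture 2.

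Single members on the lower side included rps3002, for eS30 of the small subunit, with 294, 251 and 260 CPM in the knockout and 313, 408 and 359 CPM in WT. Its log2 fold change was −0.42 (SE 0.22), and the groups did not overlap. The gene rps2501, for eS25, had 416, 313 and 340 CPM in the knockout and 463, 576 and 436 CPM in WT, with −0.46 (SE 0.24). At steady state the log2 fold changes of rps3002 and rps2501 were 0.38 and 0.08, and at labelled 20 they were −0.37 and −0.58. They were −0.06 and −0.13 at labelled 5, 0.42 and 0.25 at labelled 105, and 0.12 and 0.06 at labelled 125. In the gene rps1401, for uS11, the labelled 50 values were 47.2, 126 and 48.3 CPM in the knockout and 71.1, 58.4 and 42.7 CPM in WT, so knockout culture 2 alone was high. It gave the smallest p of the tests of difference between fractions: 1.04 for labelled 50 minus labelled 5 (SE 0.18), with edgeR adjusted p = 0.313.

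Elongation, termination and other TOP-like factors (20 tested) had a median log2 fold change of 0.09 and initiation factors (25 tested) one of 0.01, with no call in either. Leaving out 1 culture moved the first between −0.09 (without knockout culture 2) and 0.22 (without WT culture 2), and the second between −0.02 and 0.11. The gene pabp, for the cytoplasmic poly(A)-binding protein, whose animal mRNA is a 5'TOP mRNA, had 287, 333 and 312 CPM in the knockout and 199, 256 and 260 CPM in WT. All knockout values were above all WT values, with a log2 fold change of 0.38 (SE 0.21). The gene btf3, for a subunit of the nascent polypeptide-associated complex, had 761, 617 and 635 CPM in the knockout and 1113, 954 and 696 CPM in WT, with −0.46 (SE 0.28), but −0.29 without WT culture 1 and 0.0042 within set B. For tif213, the gamma subunit of eIF2, the log2 fold change was 0.33 (SE 0.25), and 0.15 without knockout culture 1. For tif45, the cap-binding factor eIF4E, it was −0.30 (SE 0.23), and −0.19 without knockout culture 2. The 95% interval lay inside 2-fold for all 25 initiation factors and for 14 of the 20 elongation and TOP-like genes.

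Ribosome biogenesis genes, which act in the nucleolus to process rRNA and assemble subunits, had 82 of 100 log2 fold changes below 0 and a median of −0.14, with no call. That median was 0.10 without WT culture 1. The level of the list was −0.04, −0.04 and −0.09 in knockout cultures 1, 2 and 3 and 0.48, −0.19 and −0.14 in WT cultures 1, 2 and 3, so WT culture 1 alone was high. Within set A, which holds that culture, the median was −0.24, and within set B 0.07. The assembly factor gene rlp7 had 282, 293 and 270 CPM in the knockout and 588, 307 and 349 CPM in WT, a log2 fold change of −0.56 (SE 0.29) that was −0.21 without WT culture 1. The gene rio2, for a kinase of small-subunit maturation, had 108, 110 and 85.7 CPM in the knockout and 230, 95.4 and 121 CPM in WT, with −0.55 (SE 0.31), and −0.07 without WT culture 1. Mitochondrial ribosomal protein genes (60 tested) had a median of −0.08, from −0.11 to −0.02 when 1 culture was left out, and proteasome genes (34 tested) one of −0.001, from −0.08 to 0.14. The interval lay inside 2-fold for all 34 proteasome genes.

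**Figure D4:**
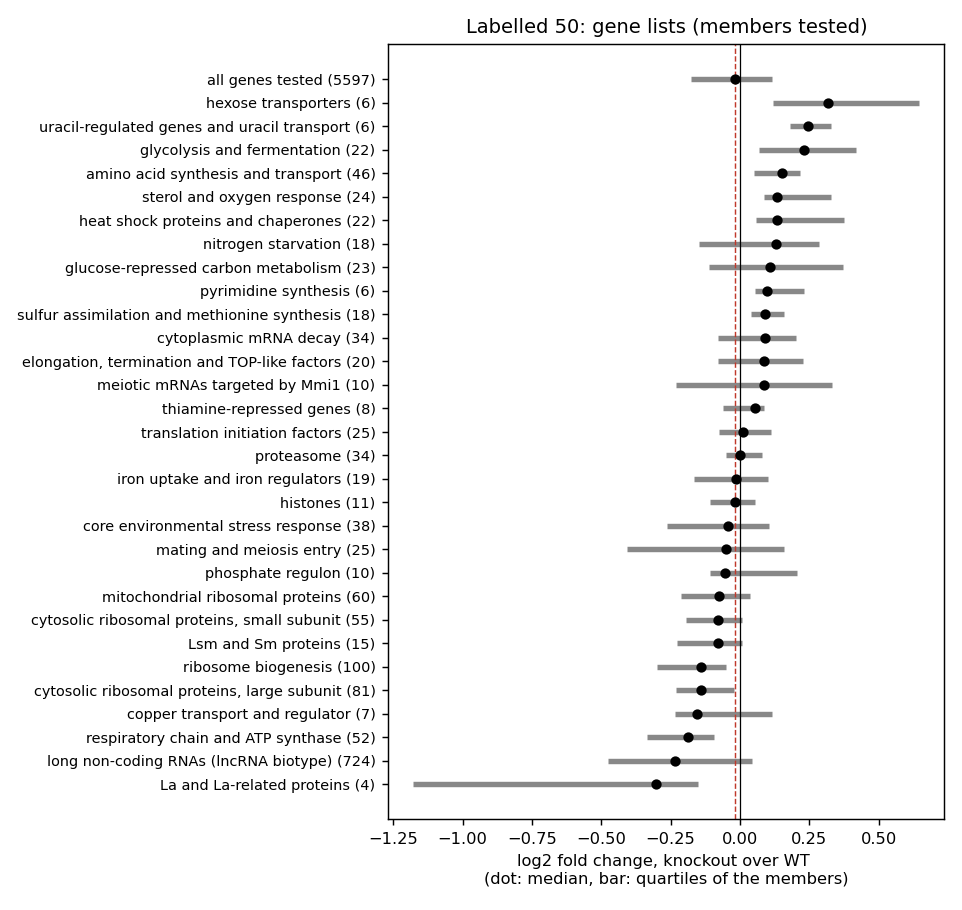
Log2 fold change, knockout over WT, of the gene lists at labelled 50, with the number of members tested in brackets. The dot is the median over members, the bar runs between the quartiles, the black line is 0, and the dashed red line is the median of all 5597 genes at −0.02. The list of La-related genes holds slr1 itself.

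Metabolic lists with higher medians also moved when single WT cultures were left out. Amino acid synthesis and transport genes had 40 of 46 log2 fold changes above 0 and a median of 0.15, which was −0.08 without WT culture 1 but 0.34 without WT culture 2. Their level was 0.16, −0.05 and 0.16 in the knockout cultures and −0.64, 0.33 and 0.09 in WT cultures 1, 2 and 3. Glycolysis and fermentation genes had 18 of 22 above 0 and a median of 0.23, which was at 4.49e-04 without WT culture 1 and at 0.53 without WT culture 2. Sterol and oxygen response genes had 21 of 24 above 0 and a median of 0.14, at 0.02 without WT culture 1 but 0.40 without WT culture 2. For heat shock proteins and chaperones 17 of 22 were above 0, with a median of 0.13, at −0.01 without WT culture 1 but 0.42 without WT culture 3. Within sets A and B the medians were 0.08 and 0.09 for amino acid genes, and 0.30 and 0.11 for glycolysis genes. They were 0.12 and 0.17 for sterol genes, and 0.06 and −0.02 for heat shock genes. With the set as a term the 4 medians were 0.09, 0.23, 0.15 and 0.04, in that order. No member of these 4 lists passed the test.

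In glycolysis, tdh1, a glyceraldehyde-3-phosphate dehydrogenase gene, had 3077, 2687 and 2953 CPM in the knockout and 1037, 1694 and 2530.4 CPM in WT. All knockout values were above all WT values, with WT culture 3 close to them, and the log2 fold change was 0.73 (SE 0.37). It was 0.46 without WT culture 1, 1.10 without WT culture 3 and 0.25 in set B. The aldehyde dehydrogenase gene atd1 had a log2 fold change of 0.66 (SE 0.37), at 0.42 without WT culture 2, 1.13 without WT culture 3, 0.97 in set A and 0.10 in set B. Of the nitrogen assimilation genes, gln1, for glutamine synthetase, had 351, 330 and 297 CPM in the knockout and 192, 187 and 288 CPM in WT, with 0.56 (SE 0.24). For glt1, the glutamate synthase gene, the value was 0.43 (SE 0.30), and 0.20 without WT culture 1. The disaggregase gene hsp104 had 127, 274 and 132 CPM in the knockout and 121, 109 and 131 CPM in WT, so its log2 fold change of 0.57 (SE 0.30) rested on knockout culture 2, and it was −0.03 within set B.

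Long non-coding RNAs had 516 of 724 log2 fold changes below 0 and a median of −0.23, while the 4832 protein-coding genes had a median of −0.004. None of the 724 passed. At an unadjusted p under 0.05, 13 were lower and 1 higher, beside 0.661% and 0.5% of all genes. All knockout libraries lay below all WT libraries in 45 members and above them in 6, beside the same 2.64% and 2.39%. Set A alone gave a median of −0.12, set B alone −0.11, and the fit with the set as a term −0.14. All cultures but WT culture 1 gave −0.08. That culture had the highest level of this list. At steady state the median of the list was 0.10. At labelled 5, 20, 105 and 125 it was −0.21, −0.23, −0.24 and −0.14. The intervals of these genes are wide, and 149 of the 724 lay inside 2-fold. The strand setting of the counting is not stated. Whether reads of an antisense transcript were kept apart from those of its partner gene is therefore not known. Reads set aside as ambiguous between genes made up 0.58 to 0.75% at labelled 50. SPNCRNA.1340 had 2.13, 2.56 and 3.12 CPM in the knockout and 10.2, 9.70 and 5.404 CPM in WT. Its log2 fold change of −1.75 (SE 0.44) did not pass (edgeR adjusted p = 0.9998). The knockout values are low and rest on few reads.

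The other lists gave no call either. Hexose transporter genes (6 tested) had a median of 0.32, which was 0.14 without WT culture 1, 0.53 without WT culture 3 and −0.02 in set B. Pyrimidine synthesis genes (6 tested) had one of 0.10, which was at 0.03 without WT culture 1 and at 0.29 without WT culture 2. The gene ura1, for the enzyme that starts pyrimidine synthesis, had 1759, 1566 and 1604 CPM in the knockout and 928, 1600.1 and 1157 CPM in WT, with a log2 fold change of 0.42 (SE 0.30), at 0.26 without WT culture 1 and 0.66 without WT culture 2. The uracil permease gene fur4, through which uracil enters the cell, had 141, 191 and 157 CPM in the knockout and 115, 140 and 163 CPM in WT, with 0.23 (SE 0.20), between 0.10 without knockout culture 2 and 0.37 without WT culture 3. Both sets of values overlapped between the genotypes. Sulfur and methionine genes (18 tested) had a median of 0.09, from 0.03 without WT culture 1 to 0.23 without WT culture 2, the sulfite reductase gene met10 a value of 0.51 (SE 0.25) and the methionine synthase gene met26 one of 0.54 (SE 0.32). Mating genes (25 tested) had a median of −0.05, from −0.15 without knockout culture 2 to 0.06 without knockout culture 1. Among them mfm2, which encodes the M-factor pheromone, had 13.8, 37.0 and 6.23 CPM in the knockout and 64.8, 72.3 and 13.5 CPM in WT, with −1.33 (SE 0.66). That value was −0.29 in set B, −0.68 with the set as a term and −2.27 without knockout culture 2, and mfm2 was among the genes that passed between the sets, with −2.04 for set B over set A (SE 0.31, edgeR adjusted p = 0.0287). Histone genes (11 tested) had a median of −0.02, which was at −0.27 without WT culture 1 and at 0.37 without WT culture 2. Phosphate-regulated genes (10 tested) had one of −0.05, from −0.31 without knockout culture 2 to 0.30 without WT culture 2. Cytoplasmic mRNA decay genes (34 tested) had one of 0.09, between 0.08 and 0.12 in those fits. In the decay list the deadenylase gene pan3 had 72.8, 84.4 and 66.2 CPM in the knockout and 40.3, 67.2 and 48.1 CPM in WT, with 0.53 (SE 0.23).

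The knockout effect at labelled 50 was also set against that in other fractions of the same cultures, with the culture as a term in 12 libraries. No gene passed in any of the 3 tests. At an unadjusted p under 0.05, edgeR gave 226 of 5645 genes for labelled 50 against steady state (4%), 183 of 5618 against labelled 5 (3.26%) and 95 of 5727 against labelled 125 (1.66%), and DESeq2 gave 0 calls with 101, 75 and 43 genes. These unadjusted counts were not stable. Fits without 1 culture gave 78 (without WT culture 2) to 802 (without knockout culture 2) against steady state, 106 to 292 against labelled 5 and 36 to 376 against labelled 125, and fits without the culture term 21, 12 and 7. The fatty acid ligase gene lcf2 was among the smallest p in 2 of these tests. Its labelled 50 values were 309, 184 and 219 CPM in the knockout and 131, 128 and 195 CPM in WT, a log2 fold change of 0.65 (SE 0.26), and the groups overlapped. Its effect at labelled 50 minus that at steady state was 0.63 (SE 0.18, edgeR adjusted p = 0.849), and minus that at labelled 125 it was 0.77 (SE 0.20, edgeR adjusted p = 0.999). The gene scr1, for the repressor of glucose-repressed genes, gave 0.77 for labelled 50 minus labelled 125 (SE 0.19, edgeR adjusted p = 0.999).

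More genes passed between the culture sets than between the genotypes. With genotype as a term, set B and set A differed in 113 of 5597 genes at labelled 50 (2.02%), 28 higher and 85 lower in set B, and 1197 had an unadjusted p under 0.05 (21.4%). Between libraries of different genotype and the same set, the median absolute log2 difference over genes was 0.23 (median of 4 pairs), against 0.33 for libraries of the same genotype in different sets (4 pairs). The 2 pairs that shared genotype and set differed by 0.21 (knockout cultures 1 and 3) and 0.43 (WT cultures 1 and 2). The value for WT cultures 1 and 2 was the widest of the 15 pairs, so libraries of 1 set were not always close. The genes with the widest range were named after their values were seen. The uracil-regulated gene urg1 had 8.87, 1820 and 14.02 CPM in knockout cultures 1, 2 and 3 and 1048, 42.8 and 36.2 CPM in WT cultures 1, 2 and 3. For urg2 the values were 36.9, 1192 and 42.1 CPM in the knockout and 936, 43.6 and 86.5 CPM in WT. Knockout culture 2 and WT culture 1 alone were high in both genes. The biotin transporter gene vht1 had 1045, 322 and 1136 CPM in the knockout and 137, 271 and 941 CPM in WT, so all set B libraries were above all set A libraries. For spk1, the mitogen-activated protein kinase of the pheromone response, the values were 22.4, 111 and 19.5 CPM in the knockout and 115, 72.1 and 19.5 CPM in WT, with set A above set B.

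**Figure D5:**
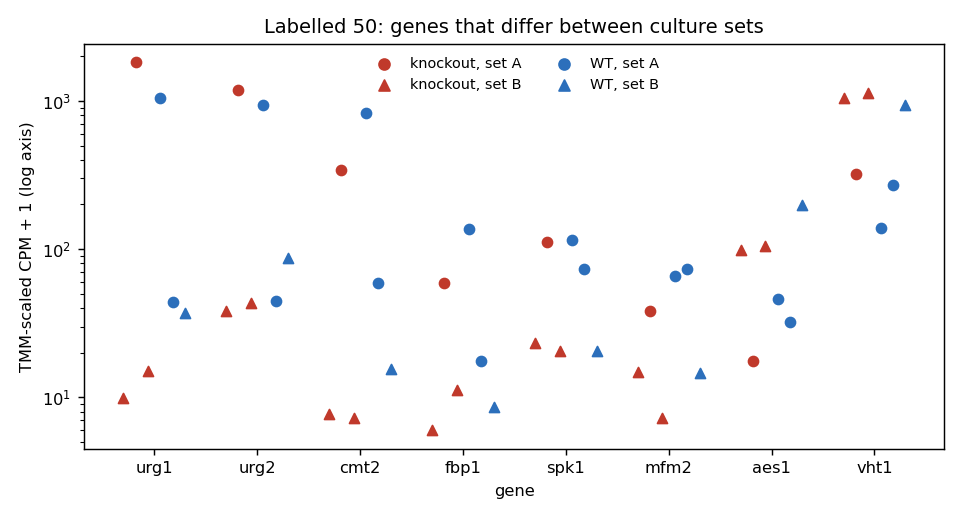
Levels (TMM-scaled CPM plus 1, log axis) of genes that differ between cultures at labelled 50. Red marks are knockout and blue marks WT libraries, circles are set A and triangles set B. For vht1 the 3 set B libraries lie at or above 941 CPM and the 3 set A libraries at or below 322 CPM, whichever the genotype.

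Within set A, where 1 knockout library stands against 2 of WT, slr1 was the 1 gene of 5888 that passed (0.017%). Within set B, with 2 knockout libraries against 1 of WT, 7 of 5301 passed (0.132%): ght5 was higher, and slr1, hsp9, hsp16, urg1, urg2 and aes1 were lower. In ght5 the log2 fold change within set B was 1.35 (SE 0.25, edgeR adjusted p = 1.01e-04), and within set A it was 0.63. The gene hsp16, for a small heat shock protein, had 576 and 318 CPM in the knockout libraries of set B and 1283 CPM in its WT library, but 336 CPM in the knockout library of set A and 175 and 561 CPM in its WT libraries. For urg1 the log2 fold change was −1.75 within set B (SE 0.38) and 1.77 within set A, so the sign turned. The spread of the lone library could not be measured in these fits, which take it to vary like the pair, so their calls rest on how close the pair was. Over all 6 libraries urg1, urg2, hsp16 and aes1 had edgeR unadjusted p between 0.263 and 0.856, and none passed.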

How the data were processed

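The authors deposited raw read counts per gene for each library, with no normalisation. The submitters' processing notes name STAR 2.5.2a, HTSeq 0.6.1p2, Trimmomatic 0.36 and R 3.5.2. No source used here states the build, the annotation or the strand setting, so no coordinates or sequences are printed. Each file lists 7268 S. pombe, 28006 human and 17104 fly genes and 5 summary lines, which stayed out of library sizes and tests. At labelled 50, reads without a feature made up 3.84 to 6.34%, and reads without a unique place 5.82 to 9.39%. Symbols came from a RefSeq table of ASM294v3, which matched 6862 identifiers.

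The quasi-likelihood F test of edgeR 4.0.16 (R 4.3.3) was run on the counts of the 6 libraries, after TMM scaling and filterByExpr with min.count 10. P-values were adjusted by Benjamini-Hochberg, with a threshold of 0.05, over all S. pombe genes tested. Differences between fractions were tested as an interaction in 12 libraries with the culture as a term. Fold changes describe shares of S. pombe counts, not amounts per cell. The labels call the cultures biological replicates from single colonies, so p-values set the genotype difference against the spread between cultures. The main fit has genotype as its only term, so that spread includes differences between the culture sets. Set B holds more knockout than WT cultures and set A the reverse, so genotype and set are partly confounded. Log2 fold changes of the main fit can therefore carry part of a set difference. With the set as a term the median of phosphate-regulated genes turned to 0.15 from −0.05, while that of glycolysis and fermentation genes stayed at 0.23.

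Genes were named by rule: slr1, the 10 largest called changes each way (filled by the smallest p among genes that had a symbol, averaged 10 CPM or more and did not overlap), and of each of 29 lists the 3 largest called members or the 2 with the smallest p. Not every gene under the rule is described. Lists were described by counts and medians, with no test of the list. The members and lists were chosen with earlier results of these data known.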

Additional observations from a re-analysis of the deposited data

How the results depend on the processing

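Under each alternative run (RLE scaling, total counts, human counts as library size, no filter, a minimum count of 30, DESeq2, 30 labelled libraries, culture set as a term, replicate block, within each set, leaving out each culture), the count of higher genes was 0 and of lower genes 1, except within set B (1 higher, 6 lower) and when a culture was left out, where the lower count ran from 0 to 1. Replicate numbers do not pair the cultures: deviations of same-numbered libraries correlated at −0.46, 0.09 and 0.58. The replicate block gave 0 higher and 1 lower gene, with 72 at an unadjusted p under 0.05 against 65 without it. The culture set as a term gave 160 such genes, and leaving out 1 culture 30 (without knockout culture 3) to 203 (without knockout culture 2). Tests of difference between fractions gave 0 calls in every alternative. Scaling to human counts moved the median of all genes to 0.29 from −0.02. Relative to that shift the medians were −0.06 for ribosomal protein genes, −0.16 for respiratory genes, −0.29 for long non-coding RNAs and 0.21 for amino acid genes. This scaling changes a single factor per library, so with the shift taken out the medians could change little. Their kept signs are therefore no support. Within set A the log2 ratios turned to 0.36 for human per S. pombe counts and 0.34 for fly per human counts. Among the genes whose signs turned were btf3 (0.0042), hsp104 (−0.030), hsp78 (−0.0084), fur4 (−0.14) and pho1 (0.69) within set B. Without WT culture 1 the signs also turned for rec10 (0.31, from −0.67) and pho4 (−0.035, from 0.23). For hht2 the value ran from −0.49 to 0.11 among fits without 1 culture. The causes were not tested. Under human scaling, where the median of all genes moved to 0.29, tif45 (0.031, from −0.30) and hht2 (0.061, from −0.25) were among the genes that turned. Counts of 12 to 56 reads limit slr1 in the knockout, and the 3 against 3 design limits genes whose cultures differ.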

Other observations

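Some groups varied little among the 6 cultures. Translation initiation factors had a median level, as log2 CPM minus each gene's mean, of 0.11, −0.12 and 0.01 in knockout cultures 1, 2 and 3, against −0.05, −0.02 and −0.02 in WT cultures 1, 2 and 3. Knockout cultures 1 and 2 thus lay outside the WT values, in opposite directions. Thiamine-repressed genes had 0.02, 0.03 and 0.08 in the knockout cultures, against 0.02, 0.06 and −0.02 in WT. Other groups differed between cultures of 1 genotype: the uracil-regulated genes had −0.77, 1.48 and −0.57 in the knockout cultures, against 1.15, −0.68 and −0.48 in WT. The acid phosphatase gene pho1 had 374, 564 and 367 CPM in the knockout, against 204, 1593 and 229 CPM in WT, where WT culture 2 alone was high. Its log2 fold change of −0.63 (SE 0.71, edgeR adjusted p = 0.9998) was 1.02 without that culture, −1.06 without WT culture 1 and −1.03 without WT culture 3. The iron-responsive repressor gene fep1 had 208, 190 and 228 CPM in the knockout, against 157, 165 and 162 CPM in WT, a log2 fold change of 0.37 (SE 0.18) that did not pass.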
